A study of Homo sapiens with 2 samples.

Results

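The cytosolic ribosomal proteins were taken as every gene symbol of the deposited count table that begins with RPL or RPS followed by a number, with the endings A, X or L allowed, together with RPLP0, RPLP1, RPLP2 and RPSA. This gave 85 genes of the 19927 in the table, 53 named for the large subunit and 32 for the small subunit, and 8 of them are L-type paralogs. The cells are Huh7, a long-established line from a human hepatocellular carcinoma, harvested 48 h after a change to medium holding either DMSO as the vehicle or homochlorcyclizine dihydrochloride. The latter is an antihistamine of the piperazine type, and the sources used here give no dose. Poly(A)-selected mRNA was sequenced from 1 library per group, and the totals were 38133894 counts with DMSO and 40791119 with homochlorcyclizine. With 1 library in each group there is no replicate check and no test between conditions, so each ratio below describes these 2 libraries.

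The cytosolic ribosome is made of a large and a small subunit, each a core of ribosomal RNA with many proteins that are needed in equal numbers. Most of their mRNAs begin with a C followed by a run of pyrimidines, the terminal oligopyrimidine or TOP sequence, through which the kinase mTOR and the RNA-binding protein LARP1 set their translation and stability. A few of the proteins have a second gene, the L-type ("like") paralogs, which are mostly present at lower levels than their partners or only in some tissues.

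As a group, these mRNAs differed little between the libraries. Ratios are homochlorcyclizine over DMSO, between counts scaled to library totals (CPM) with TMM factors, and each range in brackets after a ratio is its 95% counting interval. An average of 1 CPM or more was reached by 81 of the 85 members. Of these 81, 49 had a ratio above 1 and 32 below it, beside 6046 and 6307 of all 12353 genes tested. The median log2 ratio of the members was 0.038, beside -0.012 over all genes tested. No member was at least 2-fold higher, against 5.81% of all genes tested, and 1 member, RPL39L, was at least 2-fold lower, against 5.10%. By a smaller step, 2 members were at least 25% higher (24.7% of all genes tested) and 7 were at least 20% lower (25.9%), which is the same fold in either direction and is called the smaller step below. The other 72, or 88.9% of the members, lay inside these bounds or had an interval reaching 1, as did 49.4% of all genes tested. With these high counts even small ratios left the interval of counting error, which excluded 1 on the higher side in 42 members (37.8% of all genes tested) and on the lower side in 27 (40.0%).

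**Figure D1:**
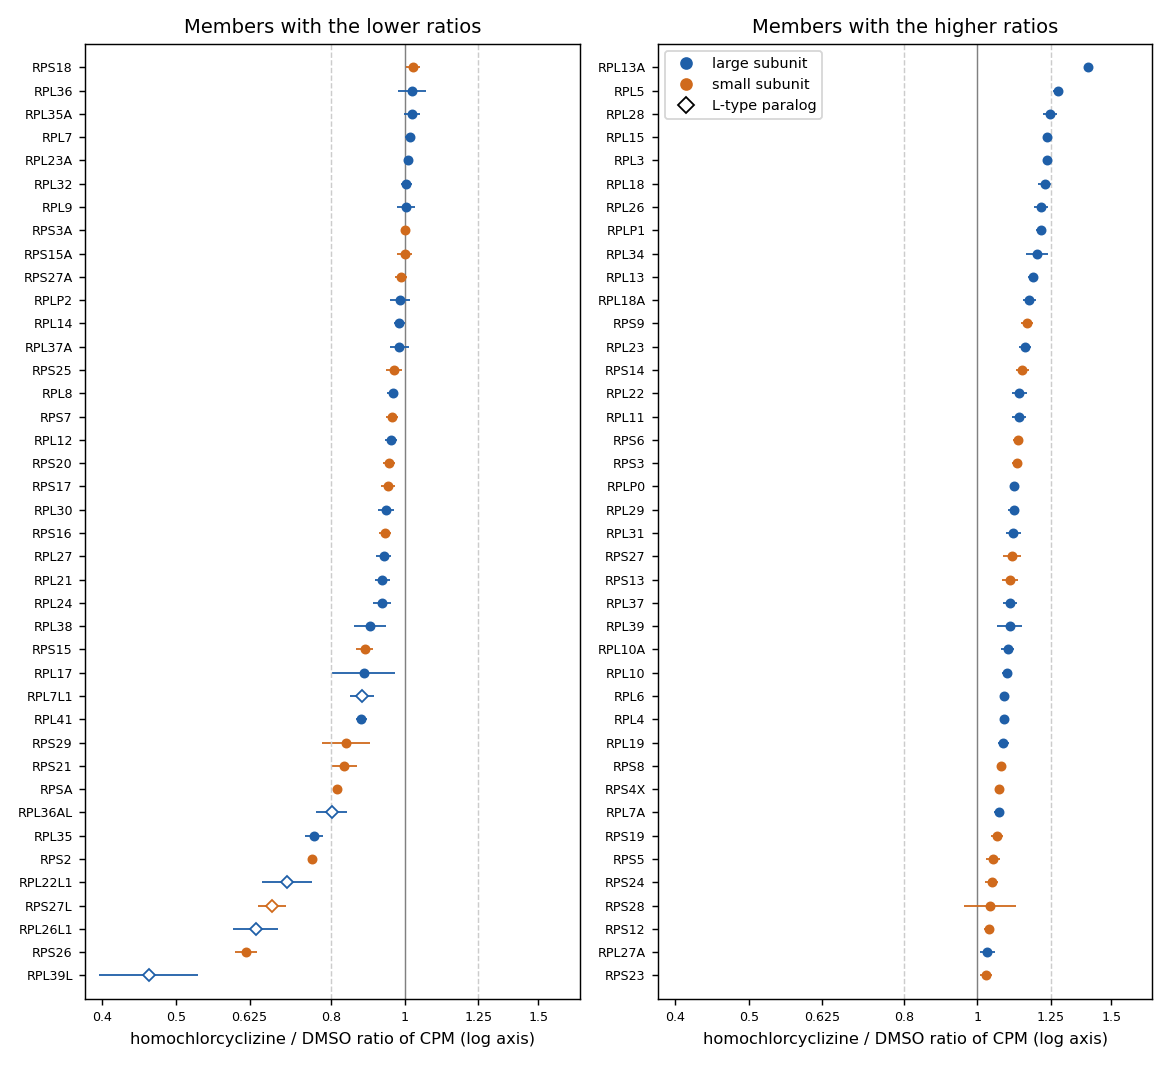
Ratio of CPM, homochlorcyclizine over DMSO, on a log axis for 80 of the 81 ribosomal protein genes averaging 1 CPM or more, ordered by ratio; bars are 95% counting intervals, dashed lines mark the bounds of 20% lower and 25% higher, colours mark the subunit and open diamonds the L-type paralogs. RPL13A at 1.40 and RPL5 at 1.28 are the members past the higher bound, and 4 of the 7 past the lower bound are L-type paralogs.

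The spread of the members among themselves was smaller than that of all genes tested. The standard deviation of the log2 ratio was 0.26 over the 81 members and 0.19 over the 75 that are not L-type paralogs, beside 0.65 over all genes tested and 0.55 over the 2254 other genes averaging 100 CPM or more. Some gene lists described below were about as narrow, at 0.24 for mitochondrial ribosomal proteins and 0.24 for assembly factors of the small subunit. Others were wider, at 0.31 for assembly factors of the large subunit and 0.36 for other TOP mRNAs. A narrow spread was therefore not particular to the members. The level per length, given by the authors' FPKM values, kept its order across the members, with a Spearman correlation of 0.988 between the libraries over 81 genes that share both libraries. Levels with DMSO ran from 15.6 to 2704 FPKM, far wider than the ratios, so a value near 1 was bound to follow. It was not computed for other genes. Together the members took 4.97% of all counts with DMSO and 5.20% with homochlorcyclizine. In summed FPKM their share was 11.1% and 11.7%.

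**Figure D2:**
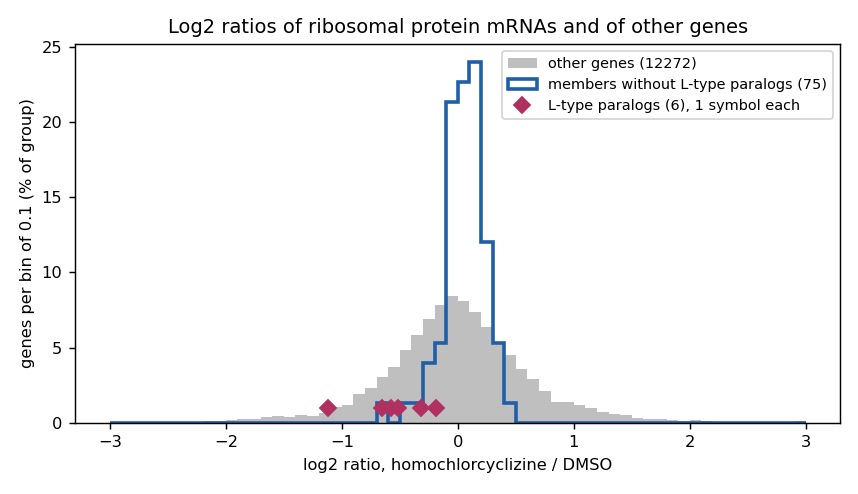
Histogram of log2 ratios, homochlorcyclizine over DMSO, in bins of 0.1, as a percentage of each group: other genes averaging 1 CPM or more in grey (values beyond 3 are drawn in the end bins), the 75 members that are not L-type paralogs as a blue outline, and the 6 L-type paralogs as diamonds placed at their own value on the horizontal axis. The blue outline has a standard deviation of 0.19, and all 6 diamonds lie below 0.

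The large subunit stood slightly above the small one. Without the L-type paralogs, 32 of 45 large-subunit genes and 17 of 30 small-subunit genes had ratios above 1, beside 6046 of the 12353 genes tested. The median log2 ratios of the 2 subunits were 0.11 and 0.037. Summed counts gave a ratio of 1.10 for the large subunit and 0.975 for the small subunit. Large-subunit genes held 2.98% of all counts with DMSO and 3.27% with homochlorcyclizine, and small-subunit genes 1.99% and 1.93%. The low sum of the small subunit rested on 3 genes chosen after their values were seen. Without RPS2, RPSA and RPS26 its ratio was 1.04 (1.036 to 1.044). The large subunit without RPL13A, RPL5 and RPL3 had a ratio of 1.074 (1.071 to 1.077). These 3 large-subunit genes follow no stated rule, as RPL28 (1.245) and RPL15 (1.235) had higher ratios than RPL3 (1.233). The 2 removals are therefore not matched. The medians of the subunits differed by 0.033 with the L-type paralogs kept and by 0.078 without them. With no filter on low counts the difference was 0.0071, and without members that share over 25% of their 50-base words with other genes it was 0.020. The genes within each subunit are not replicates, so this difference has no test.

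RPL13A, a large-subunit protein also known from a complex that represses translation after interferon-gamma, was highest among the members averaging 5 CPM or more. Its level was 1145 CPM with DMSO and 1601 CPM with homochlorcyclizine, a ratio of 1.40 (1.38 to 1.42; chromosome 19, 49487608 to 49492308). RPL5 (chromosome 1, 92831986 to 92841924) was next, at 778 and 995 CPM, a ratio of 1.28 (1.26 to 1.30). RPL5 and RPL11 carry the 5S ribosomal RNA into the large subunit and, when assembly is disturbed, bind MDM2, the ubiquitin ligase of p53. RPL11 was at 446 CPM with DMSO and 506 CPM with homochlorcyclizine, a ratio of 1.13 (1.11 to 1.16), so both genes of this particle lay above 1 and 1 of them passed the smaller step. RPL28, RPL15, RPL3 and RPL18 had ratios between 1.23 and 1.245, with RPL3, a protein of the catalytic centre, at 1689 and 2083 CPM (1.233, 1.221 to 1.246). Among members averaging 5 CPM or more, the 6 with the highest ratios all belong to the large subunit. So do 50 of the 81 members averaging 1 CPM or more.

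Below 1, RPS26 (chromosome 12, 56041918 to 56044697) had the lowest ratio of any member that is not an L-type paralog. This small-subunit protein touches the mRNA where it leaves the ribosome. RPS26 was at 239 CPM with DMSO and 148 CPM with homochlorcyclizine, a ratio of 0.618 (0.598 to 0.638). RPS2 (chromosome 16, 1962058 to 1964826), which lies at the entry of the mRNA channel, had the highest FPKM of all members in the DMSO library. It went from 2550 to 1924 CPM, a ratio of 0.755 (0.747 to 0.762). RPL35, a protein beside the exit tunnel of the large subunit, was at 300.3 and 228 CPM, a ratio of 0.760 (0.739 to 0.781). RPSA, a small-subunit protein also described as a laminin receptor precursor, was at 2031 and 1657 CPM, a ratio of 0.816 (0.807 to 0.824). Its retrocopy RPSA2, which lies outside the rule, had a ratio of 0.829 (0.796 to 0.863). RPSA shares 47.8% of its 50-base words with other genes. Whether reads counted for RPSA2 are separate from those of RPSA was not tested, so this value is not a second measurement.

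Ordered by place on the ribosome, the genes of the large-subunit stalk, which recruits translation factors, did not move as one. RPLP1 had a ratio of 1.21 (1.20 to 1.23) and RPLP0 of 1.12 (1.11 to 1.13), while RPLP2 was at 0.986 (0.955 to 1.02) and RPL12, at the stalk base, at 0.960 (0.942 to 0.977). None of these 4 passed the smaller step. Around the exit tunnel, through which the new protein leaves, 7 of 9 genes had ratios above 1, beside 6046 of the 12353 genes tested. The 9 ran from RPL26 at 1.21 (1.19 to 1.24) down to RPL35, the only gene of the 9 past the smaller step. At the peptidyl transferase centre and the tRNA sites, RPL3 was highest, RPL10A and RPL10 had ratios of 1.10 and 1.09, and RPL8 one of 0.964. Along the mRNA path of the small subunit, RPS26 and RPS2 were past the lower bound. The other 5 genes lay above 1, from RPS23 at 1.03 to RPS14 at 1.15 (1.13 to 1.17). RPS27A, made as a fusion with ubiquitin, was at 570.4 and 564 CPM, a ratio of 0.989 (0.971 to 1.01). Of ribosomal proteins whose symbols the rule does not take, FAU had a ratio of 0.895, while the scaffold RACK1 on the small subunit was 1.28-fold higher (1.26 to 1.30).

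The L-type paralogs averaging 1 CPM or more were lower with homochlorcyclizine. All 6 had ratios whose interval lay under 1 (40.0% of all genes tested), 4 of the 6 were at least 20% lower (25.9% of all genes tested), and their median log2 ratio was -0.55. Summed, the 8 paralogs went from 19634 counts to 15824, a ratio of 0.757 (0.741 to 0.773). RPL39L (chromosome 3, 187120948 to 187139496), the paralog of the exit tunnel protein RPL39 and best known from male germ cells, was at 14.0 CPM with DMSO and 6.44 CPM with homochlorcyclizine. Its ratio was 0.461 (0.396 to 0.535), from 534 and 262 counts. RPL26L1 had a ratio of 0.637 (0.595 to 0.681) and RPS27L, a p53-induced paralog of RPS27, one of 0.669 (0.641 to 0.698). RPL22L1 followed at 0.701 (0.650 to 0.755), then RPL36AL at 0.801 (0.765 to 0.839) and RPL7L1, described as an assembly factor of the ribosome, at 0.878 (0.847 to 0.910).

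In each of the 5 pairs in which both genes averaged 1 CPM or more, the paralog made up a smaller part of its partner's level with homochlorcyclizine. The FPKM of RPL39L was 5.49% of that of RPL39 with DMSO and 2.29% with homochlorcyclizine. The count ratio of paralog to partner therefore changed by a factor of 0.418 (0.357 to 0.488), a value that needs no scaling of the libraries. RPL26L1 went from 14.1% to 7.39% of the FPKM of RPL26, a factor of 0.525 (0.489 to 0.564). RPS27L went from 4.24% to 2.56% of RPS27, a factor of 0.603 (0.573 to 0.634). RPL22L1, whose protein can take the place of RPL22, went from 13.5% to 8.33% of RPL22, a factor of 0.617 (0.570 to 0.667). For RPL7L1 against RPL7 the factor was 0.864 (0.831 to 0.898). In all 5 pairs the partner had a ratio above 1, from RPL7 at 1.02 to RPL26 at 1.21.

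**Figure D3:**
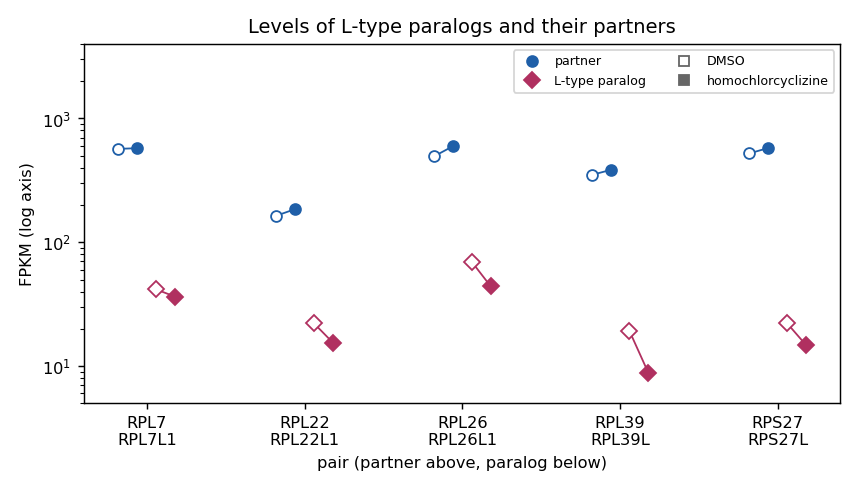
FPKM on a log axis of 5 L-type paralogs (diamonds) and their partners (circles) in the DMSO library (open symbols) and the homochlorcyclizine library (filled symbols), 1 library each, so there are no error bars. The paralogs lie below their partners and slope down, with RPL39L going from 19.2 to 8.81, while the partners slope slightly up.

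The remaining rows were hardly counted. RPL3L, which is made mainly in muscle, had 16 counts with DMSO and 27 with homochlorcyclizine, and its factor against RPL3 was 1.28, with an interval that holds 1 (0.668 to 2.55). RPL10L, known from testis, had 4 counts and 1 count. RPL36A and RPS10 are not L-type paralogs and yet held only 12 and 12 counts, and 24 and 33 counts. RPL17 was also low for its class, at 23.4 and 20.6 CPM. Each of these 3 genes overlaps an annotated read-through gene, RPL36A-HNRNPH2, RPS10-NUDT3 and RPL17-C18orf32, whose rows held 0 counts in both libraries. The sources used here do not say how reads in more than 1 gene were counted, so the levels of these 3 genes are uncertain and RPL36AL could not be set against RPL36A.

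The starts of the genes are shown next because the TOP sequence is the feature that these mRNAs are known to share. RefSeq start windows on GRCh38.p14 were matched for 68 of the 85 members. Each line gives 10 bases before the start and 20 from it on, 5′ to 3′, with the unbroken run of C or T from the start base in capitals.
RPL13A, chr19:49487598-49487627, plus strand: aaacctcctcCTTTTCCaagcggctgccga
RPLP0, chr12:120201092-120201121, minus strand: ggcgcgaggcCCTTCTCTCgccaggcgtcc
RPL35, chr9:124861938-124861967, minus strand: cgcctacttcCTCTTTCCCTCggagcgggc
RPS26, chr12:56041908-56041937, plus strand: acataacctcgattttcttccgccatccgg
RPL26, chr17:8383174-8383203, minus strand: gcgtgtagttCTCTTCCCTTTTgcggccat
RPL26L1, chr5:172958719-172958748, plus strand: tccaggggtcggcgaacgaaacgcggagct
RPS27, chr1:153990752-153990781, plus strand: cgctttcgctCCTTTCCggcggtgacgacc
RPS27L, chr15:63157458-63157487, minus strand: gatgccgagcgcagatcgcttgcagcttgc
RPL22, chr1:6199576-6199605, minus strand: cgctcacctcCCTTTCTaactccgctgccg
RPL22L1, chr3:170870176-170870205, minus strand: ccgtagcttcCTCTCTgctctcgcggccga

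A C at the start followed by at least 4 more pyrimidines was found at 1 or more listed starts of 46 of 62 members that are not L-type paralogs (74.2%), beside 755 of 10134 genes tested with a listed start (7.45%). Among the 6 L-type paralogs with a listed start it was found in 1, RPL22L1. These 6 are not the 6 measured ones: they include RPL10L, with 4 counts and 1 count, and lack RPL39L, for which no start was matched. Annotated starts can be off by some bases: RPS26 and RPL3 were not counted, although a pyrimidine run lies within the RPS26 window shown. RPL36AL was not counted either, with a run of 3 from its start, although the 10 bases before that start are all C or T. Among measured members that are not L-type paralogs, the 44 that have it had a median log2 ratio of 0.074 and the 16 that lack it one of 0.031. With the L-type paralogs kept, the medians were 0.063 over 45 members and -0.024 over 20. Another 16 measured members had no matched start and are in none of these groups, among them RPL5, RPS2 and RPL39L. The median of these 16 was 0.019. In the whole 300-base promoter windows, the letters CCGGAAG, the core bound by ETS factors, occurred on either strand in 24 of the 68 members (35.3%) and in 22.4% of the genes tested. The letters TATAAA occurred in 10.3% and 8.66%, and GGGCGG, bound by SP1, in 58.8% and 76.6%. A gene was counted if any of its listed starts had the letters. The 68 members had 84 starts and the 10134 genes tested had 14848, so members had fewer per gene. Per start, the shares were 33.3% and 16.7% for CCGGAAG, 8.33% and 6.47% for TATAAA, and 54.8% and 65.2% for GGGCGG.

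Levels per length differed widely among the members. Over the 75 that are not L-type paralogs, FPKM in the DMSO library ran from 15.6 (RPS29) to 2704 (RPS2) with a median of 569, and 49 of them lay within 2-fold of it. In the homochlorcyclizine library the range was 13.0 (RPS29) to 2193 (RPLP0) with a median of 608. RPS2, RPLP0, RPSA, RPS12 and RPL41 had the 5 highest values with DMSO. The gene length implied by the authors' counts and FPKM entered these levels: the 15 members with an implied length of 2000 bases or more, among them RPL14 at 7081 bases, had a median of 195 FPKM with DMSO, against 687 for the 41 under 1000 bases. The length cancels in each ratio between libraries. Between the log2 ratio and the log2 level Pearson's r was 0.49 over all 81 measured members, and 0.17 over the 75 that are not L-type paralogs. The Spearman correlation over the same sets was lower, at 0.28 and 0.11. With transcript GC content Pearson's r was 0.048 and -0.072. These values describe genes that share both libraries.

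Many members have processed pseudogenes, among which reads may be split. Of the 81 measured members, 25 share over 25% of the 50-base words of their GENCODE v29 transcripts with transcripts of other genes, and RPL13A (36.6%), RPL5 (25.4%), RPS26 (25.8%), RPS2 (43.1%), RPSA (47.8%), RPL35 (27.1%) and RPL26L1 (31.9%) are among them. The shares for RPL39L (10.5%), RPS27L (1.9%) and RPL22L1 (0.67%) were lower. Among the 56 members at or under 25%, 0 were at least 25% higher and 3 were at least 20% lower, which were these same 3 paralogs. The part of shared sequence in the results was not tested.

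Other genes around the ribosome are set beside its proteins here, by the same bounds. Of 19 other mRNAs known for a TOP sequence, mostly translation factors, 6 were at least 25% higher (31.6%, against 24.7% of all genes tested) and 3 at least 20% lower (15.8%, against 25.9%), and the median log2 ratio was 0.17. TPT1, the translationally controlled tumour protein, was 1.60-fold higher (1.58 to 1.62) and the initiation factor EIF4B 1.49-fold (1.47 to 1.52), while IMPDH2, which makes guanine nucleotides, had a ratio of 0.663 (0.644 to 0.683). The mitochondrial ribosomal proteins, which build the separate ribosome of that organelle, were lower. Ratios below 1 were found in 75 of 76, beside 6307 of the 12353 genes tested. Of the 76, 62 (81.6%, against 25.9% of all genes tested) were at least 20% lower, and their median log2 ratio was -0.50. MRPL39 was at 33.1 CPM with DMSO and 15.9 CPM with homochlorcyclizine (0.480, 0.436 to 0.529) and MRPL16 at 52.3 and 25.5 CPM (0.488, 0.453 to 0.527).

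Most genes that build the cytosolic ribosome were lower as well. Among 38 assembly factors of the large subunit 25 (65.8%, against 25.9% of all genes tested) were past the lower bound. PPAN was the only 1 past the higher bound (2.6%, against 24.7%), and the median was -0.53. Of 49 assembly factors of the small subunit 41 (83.7%, against the same 25.9%) were past the lower bound. None was past the higher bound (against 24.7%), and the median was -0.50. MRTO4, which holds the place of RPLP0 in precursors of the large subunit, had a ratio of 0.501 (0.472 to 0.532), and NOP58, a core protein of small nucleolar particles, one of 0.533 (0.515 to 0.552). A further list held 20 genes of RNA polymerase I, which transcribes ribosomal RNA, and its factors. Past the lower bound were 12 of them (60%, against 25.9% of all genes tested) and past the higher one 1 (5%, against 24.7%). Their median was -0.39. POLR1G was lowest at 0.438 (0.362 to 0.528). Of 10 listed chaperones of ribosomal proteins, 4 (40.0%, against 25.9% of all genes tested) were lower and 1 (10.0%, against 24.7%) was higher. RRP12, 1 of the 4 lower genes, is also counted among the assembly factors of the small subunit. NAP1L1, past neither bound, is also counted among the other TOP mRNAs. GRWD1, which escorts RPL3, was at 0.580 (0.546 to 0.615) beside RPL3 itself at 1.23. Among 12 genes that handle stalled or collided ribosomes 4 (33.3%, against 25.9% of all genes tested) were past the lower bound and none past the higher one. The recycling factor ABCE1 was lowest at 0.577 (0.557 to 0.598). Of 17 genes of mTOR and TOP control 4 were higher (23.5%, against 24.7% of all genes tested) and 2 lower (11.8%, against 25.9%). DDIT4 (3.08-fold, 2.90 to 3.26) and SESN2 (1.83-fold, 1.75 to 1.92), both inhibitors of mTOR complex 1, led them, and LARP1 had a ratio of 1.13.

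**Figure D4:**
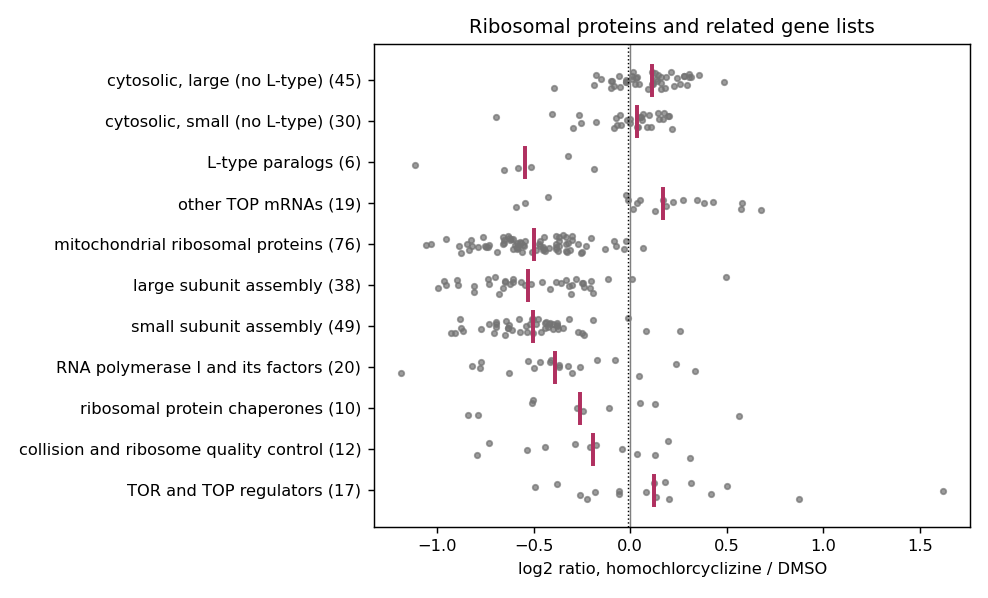
Log2 ratio, homochlorcyclizine over DMSO, of each gene averaging 1 CPM or more (grey points, spread vertically for legibility) in the cytosolic ribosomal proteins and in related gene lists, with the number of genes in brackets; red bars are medians, the solid line marks 0 and the dotted line the median of all genes tested. The cytosolic subunits have medians of 0.11 and 0.037, and the mitochondrial ribosomal proteins and both assembly lists have medians between -0.53 and -0.50.

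All 11 hepatocyte and hepatoma markers, among them ALB, AFP and HNF4A, were above 1 CPM on average, and their sum was 27538 CPM with DMSO and 25366 CPM with homochlorcyclizine. Some markers of other cell types were also above 1 CPM, namely LYZ and CD68 of 5 leukocyte markers, PECAM1 of 3 endothelial, COL1A1 and PDGFRB of 4 fibroblast and stellate, and KRT19 of 2 cholangiocyte markers. The summed levels with DMSO and homochlorcyclizine were 460.2 and 544 CPM for leukocytes and 12.04 and 5.92 CPM for endothelial cells. They were 11.8 and 10.7 CPM for fibroblasts and stellate cells and 156 and 188 CPM for cholangiocytes. The part of these markers in the results was not tested. Removing the trend of the log2 ratio with transcript GC content and length over all genes moved the median of the cytosolic ribosomal proteins from 0.038 to 0.19 and that of the mitochondrial ribosomal proteins from -0.50 to -0.39.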

How the data were processed

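Raw counts per gene for both libraries and FPKM values, scaled by the authors to gene length and library total, were used as deposited. The build was hg38, per the submitters' processing notes. The annotation, the aligner, the counter, its strand setting and its treatment of reads in more than 1 gene were not given in the sources used here. FPKM ratios differed from ratios of total-scaled counts by at most 3.13e-05%, so both deposited units hold the same measurement.

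Libraries were scaled with TMM factors (edgeR 4.0.16, R 4.3.3). Ratios, log2 ratios with a prior count of 1 and exact 95% intervals (Clopper-Pearson, conditional on the summed count) were computed in Python 3.11.15 with scipy 1.17.1, and figures drawn with matplotlib 3.10.9. Factors between paralog and partner are odds ratios with exact conditional intervals. Intervals cover counting error only, since each group is 1 library. They also treat every count as an independent molecule, which PCR copies are not, so they may be too narrow. A count of 0 allows up to 3 counts, which is 0.0785 CPM with DMSO and 0.0737 CPM with homochlorcyclizine. Calls of higher and lower required the stated size and an interval that excluded 1, over genes averaging 1 CPM or more. This rule was tested on simulated data that held counting error only. Variation between libraries and changes as small as the smaller step were not simulated. The simulation therefore cannot give the rate of false calls between real libraries. Named are the 6 highest and 6 lowest members averaging 5 CPM or more, the L-type paralogs with their partners, members by place on the ribosome and, of other lists, genes among the 3 with the largest absolute log2 ratio. LARP1, PPAN and RPSA2 were picked once their values were known. Some genes that these rules take are not reported here. The members and lists were chosen with earlier results of these data known. Gene positions and start windows are RefSeq's on GRCh38.p14, which shares hg38's coordinates, and count from 1.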

Additional observations from a re-analysis of the deposited data

How the results depend on the processing

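Under each scaling tried, the count of members at least 2-fold higher stayed at 0 and that at least 2-fold lower at 1, RPL39L, so the latter is 0 without the L-type paralogs. The median log2 ratio of the members was 0.069 with upper-quartile factors, 0.0015 as a mean and 0.19 after removal of the trend with GC and length. With upper-quartile factors 6 members were at least 25% higher. Without members that share over 25% of their 50-base words, a setting chosen after seeing the data, 0 were at least 25% higher and 3 at least 20% lower, and without the L-type paralogs 3 were lower. The ratio of summed counts was 1.046 by library totals, 1.055 by RLE size factors, 1.073 by upper-quartile factors, 1.03 in FPKM and 1.08 without RPS2, RPSA and RPS26. Without these 3 genes the ratio of the small subunit went from 0.975 to 1.04. The large minus small subunit difference was 0.063 as means, 0.078 without the L-type paralogs, 0.0071 with no filter on low counts and 0.020 without the members with shared words, and the standard deviation over members 0.30 with no filter on low counts. The mean of the genes along the mRNA path was -0.082 where their median was 0.055. The causes were not tested. The log2 ratios of the 6 measured L-type paralogs kept their direction under each scaling and prior count tried. FPKM gave the same factors between paralog and partner by construction. No paired analysis was possible because each group is 1 library, and no library could be left out. Depth limits RPL3L, RPL10L, RPL36A and RPS10, which had 1 to 33 counts.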
